A study of Homo sapiens with 12 samples.

Results

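The response to 77-39, a SIRT3 inhibitor known by its code name, was compared between KGN and COV434 over the genes measured in both cell lines. A gene was taken when its mean reached 1 FPKM (fragments scaled to gene length and library size) over the 6 libraries labelled KGN and also over the 6 labelled COV434. This left 10235 genes, 9013 of them protein coding, of 13127 with a mean of at least 1 FPKM over the 12 libraries and of 58735 in the whole table. The rule used levels, but over control and treated libraries together, so a response could bring a gene in. In 348 of the 10235 genes a line reached 1 FPKM through its control or its treated group only, among them 23 of the 299 genes described below as differing between lines and, of the genes described as shared, 11 of 110 upregulated and 11 of 159 downregulated ones. The genes nearest to the limit were HNRNPA1P7, OR1F1 and PIAS2 inside, with 1.001, 1.001 and 1.002 FPKM in the lower line, and COX5BP6, ARSD and RNA5SP203 outside, with 0.9995, 0.9996 and 0.9996 FPKM.

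KGN and COV434 are cell lines labelled as ovarian granulosa cell tumors (GCT), with a wild-type genotype in every group. Each line was sequenced in 3 control libraries and 3 libraries of cells treated with 77-39. Treatment lasted 72 h at a dose written as 10 um/ml, which can be read as µM or as µg/mL. The same dose text stands on the controls, which are named controls in their titles. The study speaks in general of independent experiments, but no label says that the 3 libraries of a group came from separate cultures, so the p-values measure the spread between these libraries, which may be technical.

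SIRT3 is a deacetylase of the mitochondria that acts on enzymes of energy metabolism. Cells meet a lack of amino acids or damage to mitochondria with the integrated stress response, in which the transcription factor ATF4 raises genes of amino acid transport and of tRNA charging. Other programs answer other conditions: NRF2 raises antioxidant genes, heat shock factors raise chaperones, interferons raise antiviral genes, HIF factors raise glycolytic genes when oxygen is low, and E2F factors drive the genes of DNA replication.

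Between 15547851 and 18280415 reads were counted on genes per library. Reads of mitochondrially encoded genes made up 7.3% to 8.81% of a KGN library and 7.71% to 13.5% of a COV434 library, where treated replicate 1 was highest. The spread between replicates was wider in COV434, with a median residual SD of log2(FPKM + 1) over genes of 0.227 against 0.0807 in KGN. The labels did not match all markers. FOXL2, a transcription factor of granulosa cells, had 2 reads in the 6 libraries labelled KGN, and 12.4 ± 0.786 FPKM (SD, n = 3) in control and 13.5 ± 0.403 FPKM (SD, n = 3) in treated libraries labelled COV434. WT1, another gene of granulosa cells, had 59.7 FPKM in control and 46.9 FPKM in treated libraries labelled KGN and no read in those labelled COV434.

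Of 14 granulosa cell markers, 2 reached 1 FPKM in KGN libraries and 4 in COV434 libraries, and FSHR was at 0 in all 12. Their summed level was 62.2 to 67.9 FPKM in KGN controls and 52.1 to 53.7 FPKM in treated KGN, and 31.6 to 34.3 FPKM in COV434 controls and 29.4 to 33.5 FPKM in treated COV434. The KGN sum was mostly WT1, at 59.7 FPKM in controls and 46.9 FPKM in treated libraries, so it does not rank the lines. In COV434 controls the sum came from FOXL2 (12.4 FPKM), AMH (8.24), INHBB (6.95) and INHA (4.75). In KGN controls these 4 had 0.00581, 4.55, 0.00561 and 1.06 FPKM. The 6 epithelial markers summed to 755 to 889 FPKM in COV434 controls and 761 to 944 FPKM in treated COV434. KRT7, KRT8 and KRT18 led these COV434 sums. In all libraries labelled KGN the markers summed to 1.01 to 1.34 FPKM. The other markers were low in COV434 controls, with EPCAM at 0.0158, CDH1 at 0.0519 and PAX8 at 0.568 FPKM. PAX8 was higher in KGN controls, at 1.05 FPKM, so the COV434 sum is one of keratins. Fibroblast markers summed to 40.1 to 42.4 FPKM in KGN controls and 38.5 to 40.4 FPKM in treated KGN, and to 81.9 to 203 FPKM in COV434 controls and 109 to 193 FPKM in treated COV434. The summed level of endothelial markers was lower in treated COV434, at 0.364 to 0.660 FPKM against 1.64 to 2.39 FPKM in controls. That sum was mostly CDH5, at 1.98 FPKM in controls and 0.506 FPKM in treated libraries, and KDR was at 0. Leukocyte markers summed to at most 0.421 FPKM in any library. In bulk RNA, fewer cells of a type and less RNA per cell cannot be told apart. The part of these markers in the results below was not tested, and the names KGN and COV434 stand for what the libraries are labelled. Whether the labels of the lines were exchanged was not tested, so every value given for a line belongs to a label and not to a verified line.

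To ask whether 77-39 changed a gene differently in the 2 lines, the interaction of cell line and treatment was tested with limma on log2(FPKM + 1) over the 13127 genes. At an adjusted p-value under 0.05, 299 of the 10235 genes (2.92%) differed, against 3.6% of all genes tested and 5.98% of the 2892 genes that did not reach 1 FPKM in both lines. The response was higher in KGN for 149 genes (1.46%, with 1.85% of all genes tested) and lower in KGN for 150 (1.47%, with 1.74%). The average of the 2 responses passed the same limit for 785 genes (7.67%, with 7.93% of all genes tested), of which 313 were upregulated (3.41% of all genes tested) and 472 downregulated (4.52%). All genes tested include these 2892 genes, where a gene near 0 in 1 line cannot show a response in that line. The lower share of the 10235 genes that differed is therefore not read as a result about them. The share with a common change was close to that of all genes tested.

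Each line was also fitted alone. At an unadjusted p-value under 0.05, KGN had 2500 upregulated and 2371 downregulated genes (23% and 20.9% of all genes tested were called), and 1809 and 1746 after adjustment (16.5% and 15.2%). COV434 had 358 upregulated and 424 downregulated genes (4.24% and 4.68% of all genes tested, 8.92% together). Treated and control libraries did not overlap for 5330 genes in KGN (47.9% of all genes tested) and for 1306 in COV434 (13.7%). After adjustment, limma called no upregulated gene and 1 downregulated gene (0.0152% of all genes tested) in COV434, A2M, with an adjusted p-value of 0.00651. A2M reached 1 FPKM in COV434 through the controls only. In what follows, "rose" and "fell" in a line refer to the unadjusted limit in that line, and the test of the difference between lines carries the adjusted p-value. Of the called genes, 431 were called in both lines, with the same direction for 300 and opposite directions for 131. They make up 8.85% of the calls in KGN and 55.1% of those in COV434. Of all 10235 genes, 7.64% were called in COV434 and 47.6% in KGN, which are the shares to set beside these 2 values. Line contrasts from the fit of all 12 libraries, which share 1 estimate of the spread, called 2232 genes in KGN and 1620 in COV434, with 584 in both (26.2% and 36%). With the replicate block, COV434 had 1258 calls, and it had 447 without control replicate 3 and 474 without treated replicate 2. The genes called in both lines were then 642 (block within COV434 alone), 232 and 259. Across all 10235 genes the 2 log2 changes had a Pearson r of 0.192 and a Spearman rho of 0.169, where the genes share the same 12 libraries and are not independent.

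**Figure D1:**
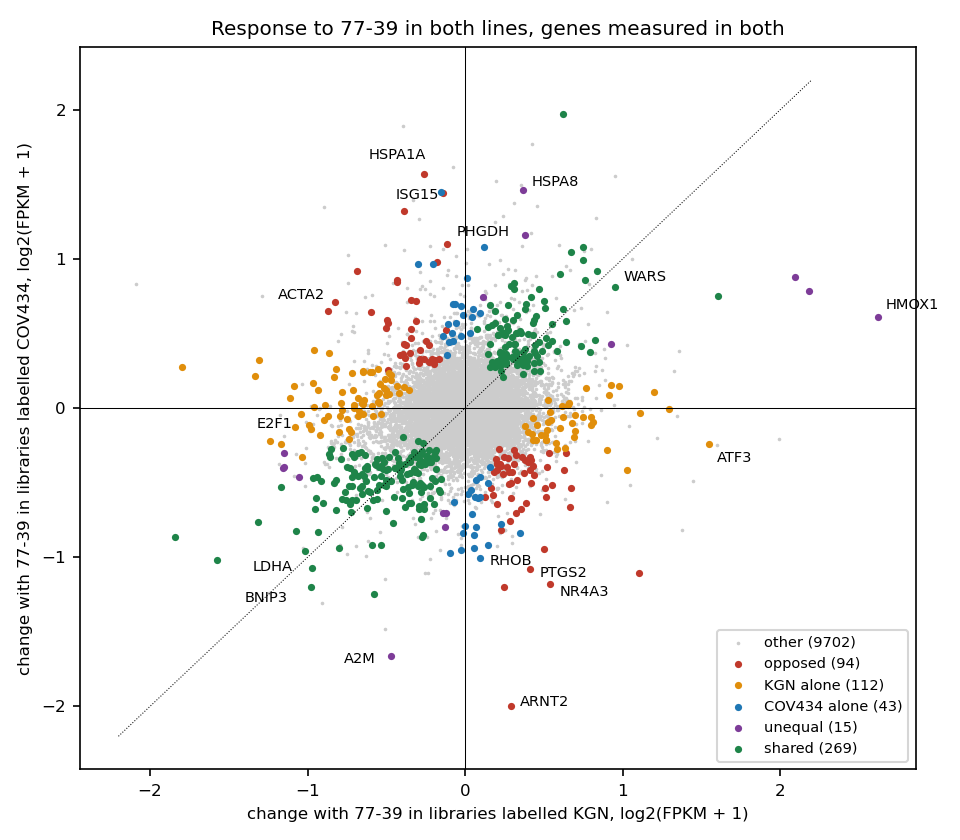
Each point is 1 of 10235 genes, placed by its log2 change with 77-39 in libraries labelled KGN (horizontal) and in libraries labelled COV434 (vertical), both on the log2(FPKM + 1) scale, with colours for the classes and the dotted line for equal changes. The 94 opposed genes lie in the upper left and lower right, the 112 and 43 genes of a single line lie near an axis, and the 269 shared genes lie in the lower left and upper right.

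The genes fell into classes. Opposed genes (94, with 0.899% of all genes tested) differed between lines by the adjusted test and changed in opposite directions, 55 of them up in KGN (0.495% of all genes tested) and 39 down in KGN (0.404%). Genes of KGN alone (112, with 1.38% of all genes tested) changed there, while the change in COV434 missed the limit and was under 0.5 of the size, with 42 up (0.587%) and 70 down (0.792%). Genes of COV434 alone (43, with 0.846%) held the mirror condition, with 21 up (0.366%) and 22 down (0.48%). Unequal genes (15, with 0.19%) differed between lines but moved the same way, 7 up (0.0914%) and 8 down (0.099%), and 35 genes (0.282%) differed without meeting any of these conditions. Shared genes (269, with 2.35%) passed the test of the average response, moved the same way in each line and did not pass the test of the difference, with 110 up (1.06%) and 159 down (1.29%). The remaining 9667 genes were in no class.

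A miss in the test of the difference does not show that 2 responses were equal. The 95% interval of the difference lay within ±0.5 on the log2 scale for 55 of the 110 shared upregulated and 75 of the 159 shared downregulated genes, and within ±1 for 105 and 152. With the wider spread of COV434, a change there had to be larger to be called. The median log2 change of shared genes was 0.34 in KGN and 0.44 in COV434 for those upregulated, and -0.48 and -0.46 for those downregulated.

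The counts depended on single libraries. Without any 1 library labelled KGN, 70 to 127 genes differed between lines in place of 299, with the lowest count without treated replicate 1. Without COV434 control replicate 3 or treated replicate 2, 155 and 158 genes differed. Without COV434 control replicate 1 or treated replicate 1, 556 and 732 did. All 299 genes kept the sign of their difference in every alternative run, and 60 were called in all 22. Runs that altered only the filter, the block, the weights or the line contrasts leave the estimated difference unchanged, so its sign was fixed there. The 299 genes were also chosen for their difference in these data, so the kept signs do not measure robustness. Distances from the group means correlated over genes between same-numbered control and treated libraries at 0.413, 0.518 and 0.170 in COV434. In KGN these values were -0.068, -0.032 and -0.064. COV434 control 3 also correlated with treated 2, at 0.210, above its own number, and the other unlike numbers in COV434 gave -0.526 to -0.009. No label states that libraries of the same number were paired. With the replicate number as a block within COV434 alone, an alternative chosen after seeing the data, 1199 genes differed and 2039 passed the average response, and the classes held 189 opposed, 475 KGN alone, 187 COV434 alone, 52 unequal and 397 shared genes. All 299 genes were among the 1199.

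The 55 opposed genes that rose in KGN and fell in COV434 were led by ARNT2, PTGS2, NFIL3, KLF10 and DIRC2. ARNT2 (ENSG00000172379, chromosome 15, 80404350 to 80597937, plus strand, GRCh38), a partner protein of HIF and related transcription factors, had 2.26, 2.46 and 2.30 FPKM in the 3 KGN controls and 3.23, 3.16 and 2.87 FPKM in the 3 treated libraries. In COV434, the controls had 7.61, 4.99 and 6.90 FPKM and the treated libraries 0.846, 0.826 and 0.889 FPKM. All treated libraries lay above the controls in KGN and below them in COV434. The log2 change was 0.29 in KGN and -2.00 in COV434, a difference of 2.29 (SE 0.17, 95% interval 1.92 to 2.66, adjusted p-value 1.95e-04 in limma). ARNT2 reached 1 FPKM in COV434 through the controls only, and rested on 1000 reads in the KGN controls and 326 reads in treated COV434.

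PTGS2 (ENSG00000073756, chromosome 1, 186671791 to 186680427, minus strand), the inducible cyclooxygenase and an NF-kB target, had 2.96, 3.28 and 3.20 FPKM in KGN controls and 4.73, 4.27 and 4.57 FPKM in treated KGN. The COV434 controls had 12.7, 14 and 15 FPKM and the treated libraries 6.46, 5.48 and 6.20 FPKM. The groups did not overlap in either line, and the level of treated COV434 remained above that of treated KGN. Its difference between lines was 1.49 (SE 0.12, adjusted p-value 3.50e-04 in limma). NFIL3, a repressor of the bZIP family, went from 5.47 ± 0.24 to 8.17 ± 0.956 FPKM in KGN and from 26.8 ± 0.558 to 13.5 ± 1.23 FPKM in COV434 (SD, n = 3 each). KLF10, a TGF-beta-induced repressor, went from 4.85 ± 0.44 to 8.32 ± 0.634 FPKM in KGN and from 12.9 ± 0.806 to 8.61 ± 0.602 FPKM in COV434. DIRC2, a lysosomal membrane protein, had the smallest of these differences, 0.80 (SE 0.10, adjusted p-value 0.00242). Named after their values were seen, the nuclear receptor NR4A3 (log2 changes 0.54 and -1.18) and the phosphatase DUSP1 (0.20 and -0.64) belonged to the same class. The class ranged from 0.12 to 1.11 in KGN and from -2.00 to -0.28 in COV434.

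The 39 opposed genes that fell in KGN and rose in COV434 were led by ACTA2, HSD17B8, UBE2L6, LTBP4 and ISG15. ACTA2 (ENSG00000107796, chromosome 10, 88935074 to 88991339, minus strand), the smooth muscle actin, had 33.7, 37.0 and 36.4 FPKM in KGN controls and 18.5, 19.7 and 19.0 FPKM in treated KGN. In COV434 it had 2.01, 1.82 and 2.57 FPKM in controls and 3.77, 4.01 and 3.89 FPKM in treated libraries. The difference was -1.52 (SE 0.13, adjusted p-value 3.77e-04 in limma), with treated and control libraries apart in both lines. HSD17B8, an enzyme of mitochondrial fatty acid synthesis, went from 22.1 ± 0.517 to 12 ± 1.01 FPKM in KGN and from 10.1 ± 1.98 to 17.0 ± 0.695 FPKM in COV434. LTBP4, which binds latent TGF-beta, went from 18.6 ± 2.1 to 11.9 ± 0.601 FPKM in KGN and from 8.94 ± 0.524 to 14.6 ± 1.27 FPKM in COV434.

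ISG15 (ENSG00000187608, chromosome 1, 1001138 to 1014540, plus strand), an interferon-induced protein that is attached to other proteins, and UBE2L6, the enzyme that carries it, were both in this class. ISG15 had 45.5, 44.6 and 46.5 FPKM in KGN controls and 31.4, 34.4 and 37.9 FPKM in treated KGN. The COV434 controls had 439, 634 and 499 FPKM and the treated libraries 1047, 1537 and 1357 FPKM. The difference was -1.71 (SE 0.23, adjusted p-value 0.00387 in limma). UBE2L6 changed mainly in COV434, from 2.38 ± 0.608 to 8.09 ± 0.396 FPKM, against 12.5 ± 0.0444 to 11.2 ± 0.868 FPKM in KGN, where its change of -0.14 had an adjusted p-value of 0.108.

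The promoter of ISG15 is shown because its matches to the core of the interferon-stimulated response element (GAAA, any 2 bases, GAAA) are set in capitals. The promoter of HSPA1A is shown with the heat shock element GAANNTTC in capitals, since this chaperone gene was opposed as well. Both sequences are the 250 bases before the RefSeq start on GRCh38.p14, read 5′ to 3′ along the gene, at chr1:1013247-1013496 on the plus strand and chr6:31815293-31815542 on the plus strand.
ISG15: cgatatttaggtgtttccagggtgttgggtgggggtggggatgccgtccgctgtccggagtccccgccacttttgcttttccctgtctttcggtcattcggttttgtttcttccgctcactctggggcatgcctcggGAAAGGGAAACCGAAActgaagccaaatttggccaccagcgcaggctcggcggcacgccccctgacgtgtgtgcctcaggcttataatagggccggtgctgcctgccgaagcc
HSPA1A: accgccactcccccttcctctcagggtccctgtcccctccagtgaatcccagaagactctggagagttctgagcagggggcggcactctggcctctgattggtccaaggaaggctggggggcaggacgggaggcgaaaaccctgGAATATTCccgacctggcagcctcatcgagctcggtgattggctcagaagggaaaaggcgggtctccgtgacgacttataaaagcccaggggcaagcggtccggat

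In ISG15, 2 overlapping matches begin 113 and 107 bases before the start. This interferon core, searched on both strands, was in 4 of the 32 promoters found for the opposed genes that fell in KGN (12.5%), in 2.16% of the 7510 promoters found for the 10235 genes, and in 3.07% of 27305 promoters of the same length. It was in 0 of 42 promoters of the opposed genes that rose in KGN. The promoters of the interferon-induced genes UBE2L6 and IFI35 held no match, and that of ACTA2 held 1. The heat shock element was in 5.85% of all promoters in 1 of the 32 (3.12%) and in 4 of the 42 (9.52%). These motifs were chosen after values had been seen, and a match is a description of letters.

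Of the interferon-stimulated list, 13 genes were measured in both lines. Of these, 0 differed with a higher response in KGN and 3 with a lower one (beside 1.85% and 1.74% of all genes tested). The 3 were ISG15, UBE2L6 and USP18. In COV434, 8 rose and 0 fell (beside 4.24% and 4.68% of all genes tested). In KGN, 1 rose and 4 fell (beside 23% and 20.9%). The median log2 change was -0.06 in KGN and 0.75 in COV434, beside medians of 0.00 and -0.02 over the 10235 genes. USP18, which removes ISG15 from proteins, went from 13.0 ± 1.54 to 24.8 ± 3.14 FPKM in COV434 and from 8.03 ± 0.379 to 8.12 ± 0.45 FPKM in KGN. Its difference of -0.86 (adjusted p-value 0.0157 in limma) passed in 10 of 12 fits that left out 1 library, and missed without KGN control replicate 2 or treated replicate 1 (adjusted p-value up to 0.0558). IFIT1, an antiviral RNA-binding protein, had changes of -0.28 and 0.91 and an adjusted p-value of the difference of 0.06.

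Of 18 cytosolic heat shock genes, 4 differed, all with a lower response in KGN (beside 1.74% of all genes tested). In KGN, 8 rose and 2 fell (beside 23% and 20.9% of all genes tested). In COV434, 4 rose and 0 fell (beside 4.24% and 4.68%). HSPA1A (ENSG00000204389, chromosome 6, 31815464 to 31817946, plus strand), an inducible HSP70, had 45.2, 36.4 and 36.9 FPKM in KGN controls and 30.6, 33.6 and 33.7 FPKM in treated KGN. It had 21.5, 13.8 and 24.1 FPKM in COV434 controls and 53.7, 51.0 and 76.2 FPKM in treated COV434. The groups did not overlap in either line, and the difference was -1.84 (SE 0.28, adjusted p-value 0.00786 in limma). Its change of -0.26 in KGN had an adjusted p-value of 0.0856 in limma. HSPA1B, a near-identical copy, went from 9.47 ± 2.17 to 27.4 ± 4.81 FPKM in COV434 and from 21.6 ± 1.87 to 19.4 ± 1.52 FPKM in KGN. Reads of the 2 copies may have been split between them, so neither value is certain alone. HSPA8, the constitutive HSP70, rose in both lines but by unequal amounts, 0.36 in KGN and 1.46 in COV434, as did its partner DNAJB1 (0.11 and 0.75). The difference of HSPA8 (adjusted p-value 0.0259) passed in 4 of 12 fits without 1 library, and missed without any library labelled KGN and without COV434 control or treated replicate 2 (adjusted p-value up to 0.0804). The other 14 genes of the list did not differ by the adjusted test, and the list medians were 0.12 in KGN and 0.11 in COV434.

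**Figure D2:**
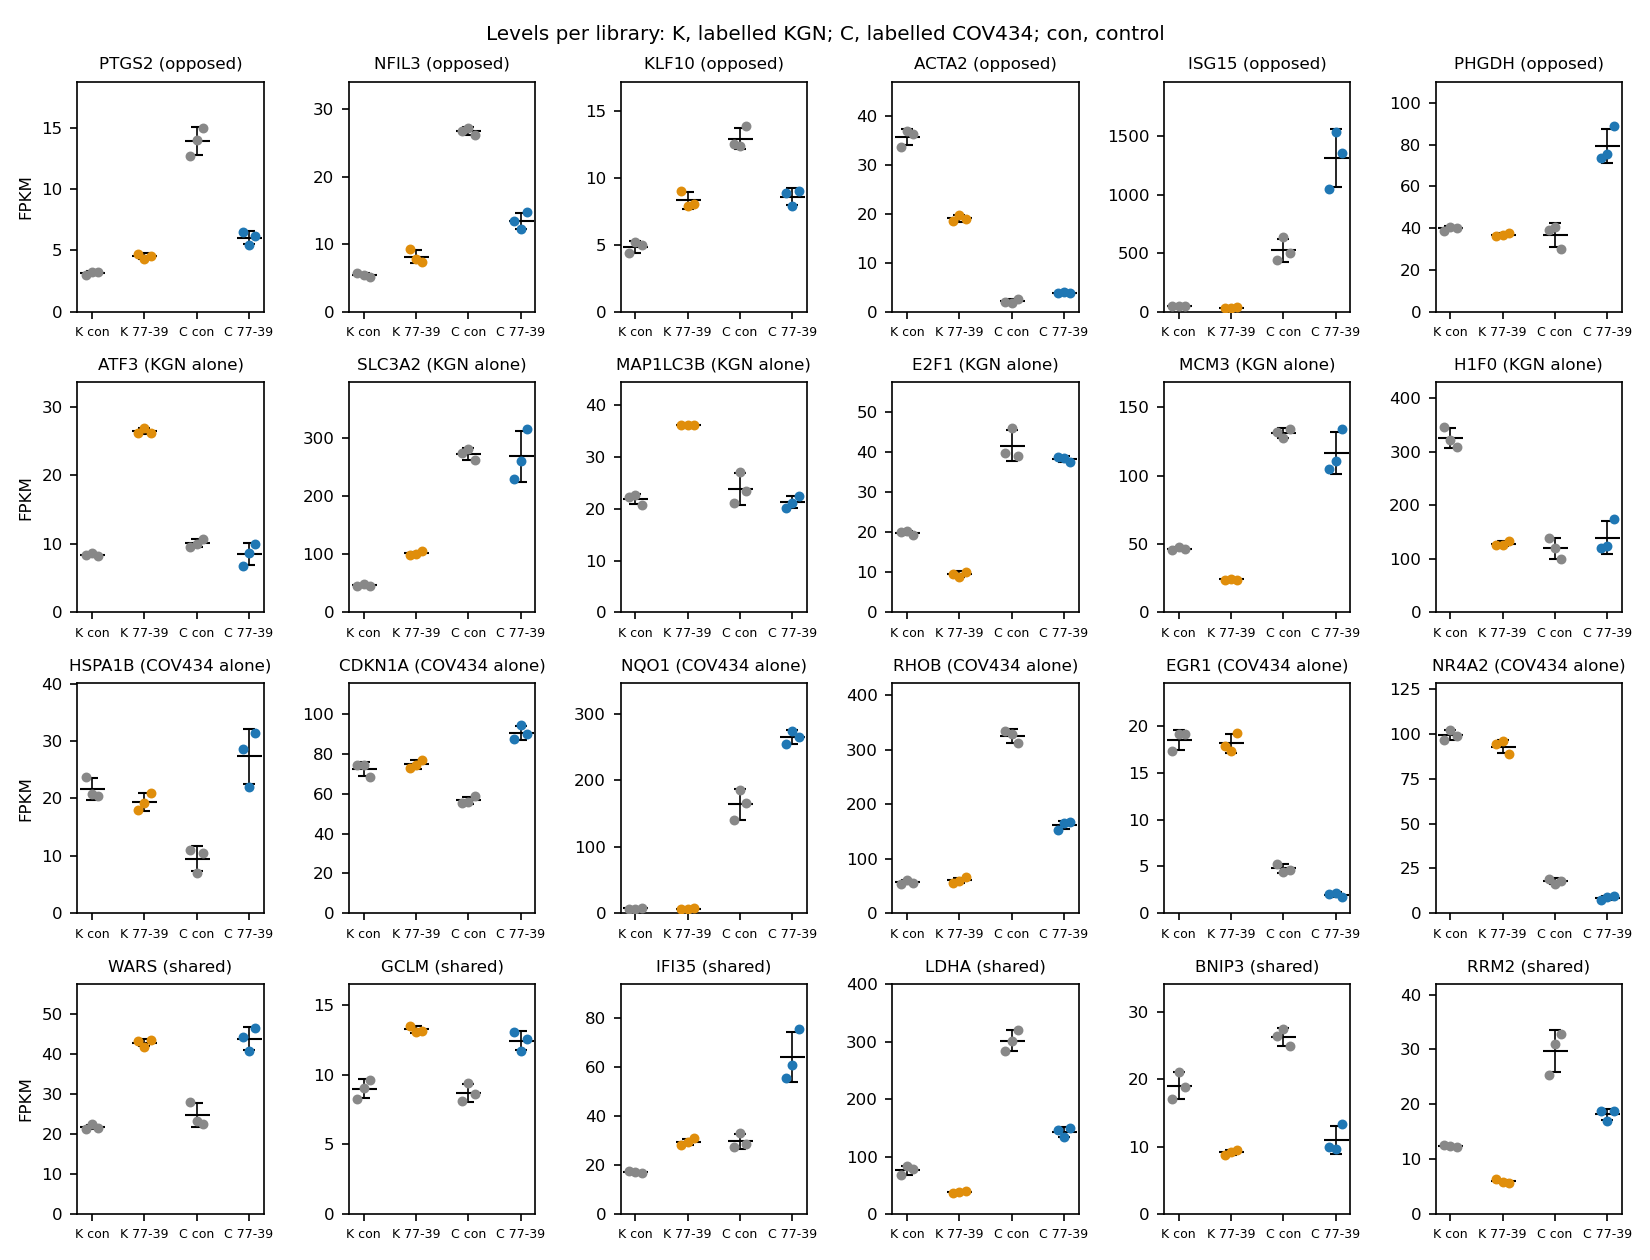
FPKM of 24 genes in each of the 12 libraries, with a point for each library, a horizontal line for the mean and a bar for the SD of 3 libraries, every axis starting at 0. In the top panels the 2 lines moved in opposite directions, and in the bottom panels both moved the same way. In the panels between, the change passed the limit in a single line. For E2F1 and NR4A2 of these, all treated libraries also lay below the controls in the other line.

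Among the 42 genes upregulated in KGN alone, ATF3 (ENSG00000162772, chromosome 1, 212565334 to 212620777, plus strand), a stress-induced transcription factor, had 8.33, 8.65 and 8.21 FPKM in KGN controls and 26.2, 27.0 and 26.2 FPKM in treated KGN. In COV434 the controls had 9.53, 10.0 and 10.7 FPKM and the treated libraries 6.79, 8.61 and 9.99 FPKM. The groups were far apart in KGN and overlapped in COV434. The log2 change was 1.55 in KGN and -0.24 in COV434 (95% interval -0.62 to 0.14), a difference of 1.79 (SE 0.16, adjusted p-value 3.77e-04 in limma). SLC3A2, the heavy chain of amino acid transporters, went from 46.7 ± 2.04 to 102 ± 3.05 FPKM in KGN and from 273 ± 10.5 to 269 ± 44 FPKM in COV434. Its difference was 1.14 (SE 0.16, adjusted p-value 0.00506).

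Other leading genes of this class were PRNP, HIST1H2AG and MAP1LC3B. PRNP, the prion protein, went from 11.8 ± 0.547 to 30.4 ± 1.8 FPKM in KGN and from 47.1 ± 8.81 to 46.4 ± 2.52 FPKM in COV434. MAP1LC3B, the LC3B protein of autophagosomes, went from 21.9 ± 1.04 to 36.1 ± 0.0514 FPKM in KGN, and in COV434 from 23.8 ± 3.04 to 21.2 ± 1.14 FPKM. HIST1H2AG, a histone H2A gene, rose by 0.58 in KGN and had a change of -0.23 in COV434, where its treated libraries all lay below the controls. The class ranged from 0.38 to 1.55 in KGN and from -0.41 to 0.15 in COV434.

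The promoter of ATF3 is shown for its match to TGATGNAA, the composite element that ATF4 binds, which is in capitals and begins 191 bases before the RefSeq start (GRCh38.p14, chr1:212565157-212565406, plus strand). TGATGNAA, searched on both strands, was in 2 of 33 promoters found for genes upregulated in KGN alone (6.06%), in 1.12% of those of the 10235 genes, and in 3.19% of all promoters. The promoters of SLC3A2 and of PHGDH, an ATF4 target described below, held no match. A single RefSeq start per gene was read, and other starts of ATF3 were not searched.
ATF3: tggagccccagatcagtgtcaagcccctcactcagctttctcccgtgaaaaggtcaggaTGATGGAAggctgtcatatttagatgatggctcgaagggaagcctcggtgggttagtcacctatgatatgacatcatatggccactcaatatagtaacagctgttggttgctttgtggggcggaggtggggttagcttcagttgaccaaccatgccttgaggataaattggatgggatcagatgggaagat

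The integrated stress response list had 35 genes measured in both lines. In KGN, 26 rose and 7 fell (beside 23% and 20.9% of all genes tested), and in COV434 3 rose and 3 fell (beside 4.24% and 4.68%). The median log2 changes were 0.35 and -0.03. A higher response in KGN passed for 3 genes and a lower one for 2 (beside 1.85% and 1.74% of all genes tested). The 3 were ATF3, SLC3A2 and SESN2, and the 2 were PHGDH and AARS. PHGDH, the first enzyme of serine synthesis and an ATF4 target, had 38.8, 40.7 and 40.2 FPKM in KGN controls and 36.2, 36.5 and 37.7 FPKM in treated KGN. It had 39.0, 40.7 and 30.1 FPKM in COV434 controls and 73.8, 75.4 and 88.9 FPKM in treated COV434, a difference of -1.22 (SE 0.17, adjusted p-value 0.0041 in limma). PHGDH thus moved against ATF3 and SLC3A2 of the same list. WARS, which charges the tRNA of tryptophan, was the leading shared upregulated gene. It went from 21.7 ± 0.609 to 42.9 ± 0.939 FPKM in KGN and from 24.7 ± 3 to 43.8 ± 2.88 FPKM in COV434, with a difference of 0.14 (95% interval -0.16 to 0.44). PSAT1, another enzyme of serine synthesis, rose in both (0.43 and 0.57), and DDIT4, an inhibitor of mTORC1 signaling, fell in both (-0.76 and -0.56).

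In the ER unfolded protein response list of 24 genes, 14 rose and 1 fell in KGN (beside 23% and 20.9% of all genes tested). In COV434, 0 rose and 0 fell (beside 4.24% and 4.68%), and the medians were 0.25 and -0.00. A single gene of the list, ERN1, the ER stress sensor IRE1, passed the test of the difference, at 0.78 (SE 0.18, adjusted p-value 0.0358 in limma), and it passed in 3 of 12 fits without 1 library. It missed without any library labelled KGN and without COV434 control replicate 2 or treated replicates 2 and 3, with adjusted p-values up to 0.109. SEL1L, a part of the ER degradation machinery, went from 9.33 ± 0.207 to 15.4 ± 0.518 FPKM in KGN and from 4.16 ± 0.412 to 4.34 ± 1.02 FPKM in COV434, with an adjusted p-value of the difference of 0.0837. For SEL1L it was 0.0184 with the block within COV434 alone and 0.0221 without COV434 treated replicate 1.

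Of 38 lysosomal genes, 30 rose and 3 fell in KGN (beside 23% and 20.9% of all genes tested), and 3 rose and 4 fell in COV434 (beside 4.24% and 4.68%). The median log2 change was 0.30 in KGN and 0.01 in COV434. The 4 genes that differed were all higher in KGN (beside 1.85% of all genes tested). NEU1, a lysosomal sialidase, went from 11.2 ± 0.383 to 20.4 ± 1.39 FPKM in KGN and from 19.3 ± 2.53 to 18.1 ± 2.5 FPKM in COV434 (difference 0.90, adjusted p-value 0.0169 in limma). LAMP2, a membrane protein of lysosomes, went from 18.9 ± 0.655 to 33 ± 1.33 FPKM in KGN and from 25.9 ± 2.98 to 28.5 ± 1.85 FPKM in COV434. NPC1, which exports cholesterol from lysosomes, was opposed, at 3.95 ± 0.337 and 5.59 ± 0.243 FPKM in KGN and 13.0 ± 2 and 9.96 ± 0.593 FPKM in COV434. NEU1 passed in 9 of 12 fits without 1 library and missed without KGN control replicates 2 and 3 and treated replicate 1 (adjusted p-value up to 0.0572). NPC1 and LAMP2 each passed in 4 of 12 and missed without any library labelled KGN. NPC1 also missed without COV434 control replicate 3 or treated replicate 2, and LAMP2 without COV434 control replicates 2 or 3 (adjusted p-values up to 0.0726 and 0.0963). TPP1, a lysosomal peptidase, and LIPA, the lysosomal lipase, were shared upregulated genes, with TPP1 at 18.1 ± 1.55 and 32.8 ± 1.4 FPKM in KGN and 13.7 ± 1.39 and 19.2 ± 2.11 FPKM in COV434.

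**Figure D3:**
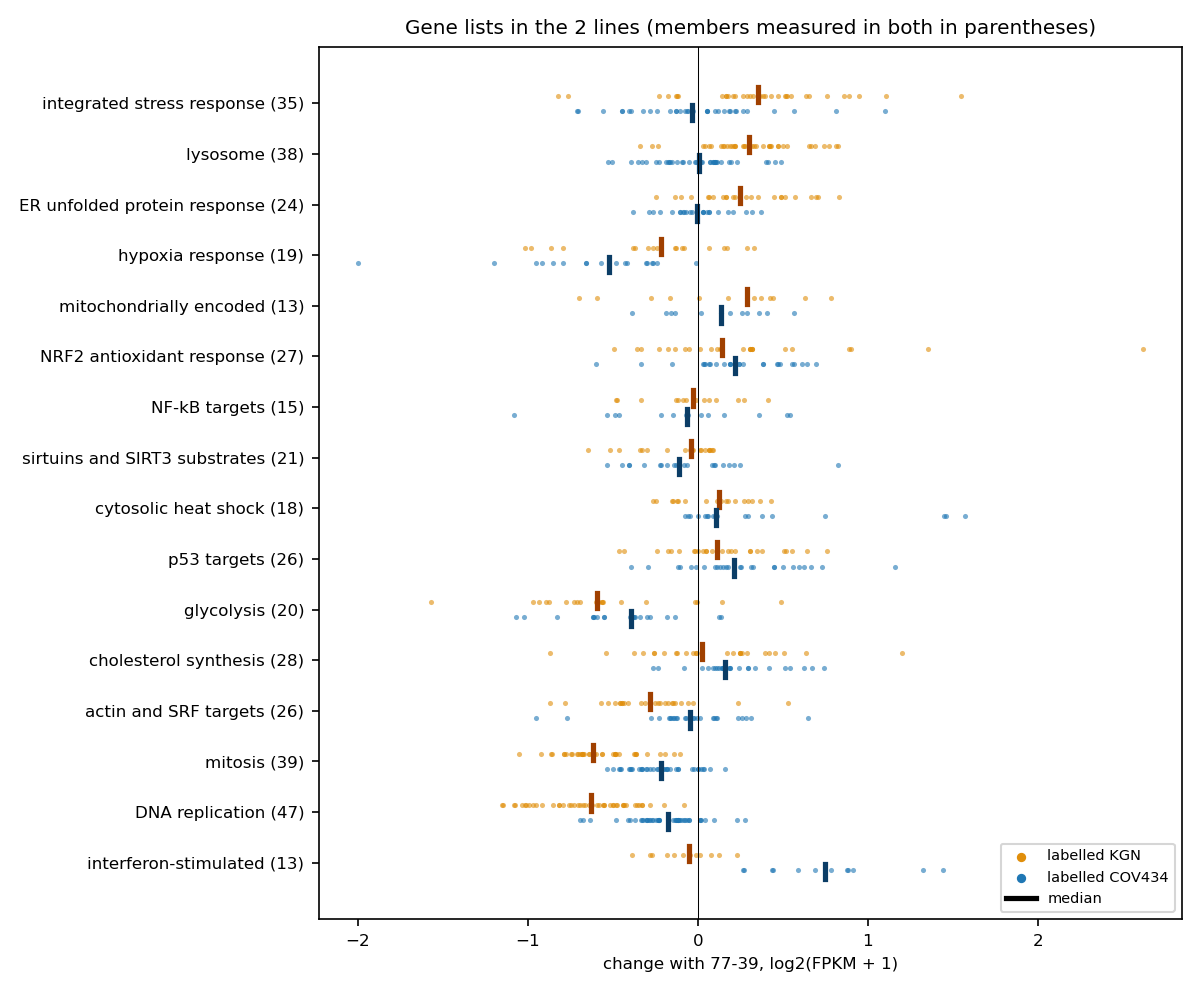
Log2 change with 77-39 on the log2(FPKM + 1) scale (horizontal) for the genes of 16 lists that were measured in both lines, with a point for each gene, orange for libraries labelled KGN, blue for those labelled COV434, and a vertical bar for each median. The medians lie furthest apart for the interferon-stimulated list, at -0.06 and 0.75, and both lie below 0 for glycolysis, hypoxia response, mitosis, DNA replication, actin and SRF targets, NF-kB targets, and sirtuins with SIRT3 substrates.

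The 70 genes downregulated in KGN alone were led by ZNF385A, NRM, CTDSP1, E2F1 and H1F0. E2F1 (ENSG00000101412, chromosome 20, 33675683 to 33686404, minus strand), the transcription factor of DNA replication genes, had 20.1, 20.2 and 19.3 FPKM in KGN controls and 9.67, 8.71 and 10.1 FPKM in treated KGN. In COV434 it had 39.8, 45.9 and 39.0 FPKM in controls and 38.7, 38.5 and 37.4 FPKM in treated libraries. The treated libraries were lower in both lines, but the change of -0.12 in COV434 missed the limit (95% interval -0.34 to 0.11). The difference was -0.88 (SE 0.12, adjusted p-value 0.00484 in limma).

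H1F0, a linker histone, went from 325 ± 19.1 to 129 ± 4.15 FPKM in KGN and from 120 ± 19.4 to 140 ± 30.7 FPKM in COV434, a difference of -1.54 (SE 0.22, adjusted p-value 0.00506). NRM, a protein of the inner nuclear membrane, went from 11.5 ± 0.471 to 5.38 ± 0.254 FPKM in KGN and from 29.2 ± 3.35 to 33 ± 3.6 FPKM in COV434. CTDSP1, a phosphatase of the RNA polymerase II tail, went from 54.6 ± 3.15 to 31.2 ± 1.17 FPKM in KGN and from 24.0 ± 1.04 to 24.6 ± 0.664 FPKM in COV434. ZNF385A, a zinc finger protein, was far more abundant in KGN, at 133 ± 4.9 and 69.2 ± 1.29 FPKM, than in COV434, at 4.13 ± 0.295 and 4.6 ± 0.432 FPKM.

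Of 47 DNA replication genes measured in both lines, 0 rose and 46 fell in KGN (beside 23% and 20.9% of all genes tested). In COV434, 0 rose and 7 fell (beside 4.24% and 4.68%). The median log2 change was -0.63 in KGN and -0.18 in COV434. A lower response in KGN passed for 8 genes and a higher one for 0 (beside 1.74% and 1.85% of all genes tested). Of the 8, 6 belonged to KGN alone (E2F1, MCM2, MCM3, GINS1, RFC2 and ORC1) and 2 fell unequally (TK1 and MCM5). MCM3 (ENSG00000112118, chromosome 6, 52264009 to 52284881, minus strand), a subunit of the replicative helicase, had 45.3, 47.6 and 46.3 FPKM in KGN controls and 23.8, 24.7 and 23.8 FPKM in treated KGN. It had 132, 127 and 134 FPKM in COV434 controls and 105, 110 and 134 FPKM in treated COV434, where the groups overlapped. Its difference of -0.74 (SE 0.14, adjusted p-value 0.0186 in limma) passed in 7 of 12 fits without 1 library and missed without KGN control replicates 2 and 3 or any treated KGN library (adjusted p-value up to 0.0654). Another 5 genes fell in both lines and were shared, among them RRM2, MCM10, POLA1 and GINS4.

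TK1, the thymidine kinase of S phase, fell in both lines, from 33 ± 2.94 to 14.3 ± 0.279 FPKM in KGN and from 104 ± 5.93 to 84.3 ± 3.53 FPKM in COV434. MYBL2, a cell cycle transcription factor, fell from 33 ± 2.22 to 14.2 ± 0.224 FPKM and from 72.7 ± 6.88 to 54.8 ± 3.31 FPKM. Their differences were -0.85 (adjusted p-value 0.00641) and -0.76 (adjusted p-value 0.015) in limma, and that of MYBL2 missed without KGN control replicates 2 and 3 or treated replicate 1 (adjusted p-value up to 0.0548). RRM2, a subunit of ribonucleotide reductase, was shared. It fell from 12.4 ± 0.164 to 5.92 ± 0.339 FPKM in KGN and from 29.7 ± 3.85 to 18.2 ± 1.05 FPKM in COV434, with a difference of -0.28 (95% interval -0.59 to 0.03).

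The promoters of E2F1 and MCM3 are shown because both hold the E2F motif TTTNNCGC, in capitals on either strand. Those of TK1, MYBL2 and RRM2 held no match and are not shown. E2F1 lies at chr20:33686386-33686635 and MCM3 at chr6:52284743-52284992, both on the minus strand of GRCh38.p14 and read along the gene. E2F1 holds 4 matches, which begin 122, 33, 20 and 14 bases before the start, and MCM3 holds 2, at 174 and 150 bases. The motif was in 7 of 52 promoters of genes downregulated in KGN alone (13.5%), in 14 of 114 of shared downregulated genes (12.3%), in 10.1% of those of the 10235 genes and in 5.93% of all promoters.
E2F1: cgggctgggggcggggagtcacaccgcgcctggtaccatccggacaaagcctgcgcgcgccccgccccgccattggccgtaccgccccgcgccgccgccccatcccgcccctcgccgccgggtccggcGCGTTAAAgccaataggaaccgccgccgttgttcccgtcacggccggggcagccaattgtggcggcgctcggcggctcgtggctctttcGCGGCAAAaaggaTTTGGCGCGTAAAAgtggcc
MCM3: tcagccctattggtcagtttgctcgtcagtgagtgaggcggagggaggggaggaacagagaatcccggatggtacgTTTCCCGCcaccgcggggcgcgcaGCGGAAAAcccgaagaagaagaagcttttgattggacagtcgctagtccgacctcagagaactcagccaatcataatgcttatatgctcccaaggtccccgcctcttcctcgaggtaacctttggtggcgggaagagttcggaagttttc

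In the mitosis list of 39 genes, 0 rose and 37 fell in KGN (beside 23% and 20.9% of all genes tested). In COV434, 0 rose and 6 fell (beside 4.24% and 4.68%), and the medians were -0.62 and -0.22. A lower response in KGN passed for 2 genes (beside 1.74% of all genes tested). PLK1, a mitotic kinase, fell in both lines, from 18.9 ± 0.956 to 8.61 ± 0.248 FPKM in KGN and from 37.5 ± 3.14 to 26.9 ± 1.08 FPKM in COV434. CDC20, an activator of the anaphase-promoting complex, fell from 34.9 ± 1.91 to 21.0 ± 0.956 FPKM in KGN and had 52.3 ± 5.55 and 52.4 ± 4.67 FPKM in COV434. Shared downregulated members were KIF20A, AURKA, KIF2C, TPX2 and KIF4A, of which KIF20A, a kinesin of cell division, went from 20.6 ± 1.02 to 10.9 ± 0.618 FPKM in KGN and from 17.0 ± 0.747 to 13.4 ± 1.59 FPKM in COV434. The difference of KIF20A was -0.53 (95% interval -0.82 to -0.24, adjusted p-value 0.0524 in limma), just outside the limit. The differences of PLK1 and CDC20 passed in 6 and 5 of 12 fits without 1 library. Both missed without COV434 treated replicate 2 and most of the libraries labelled KGN, which were all 6 for CDC20 and all but control replicate 1 for PLK1, with adjusted p-values up to 0.0804 and 0.079.

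Genes of COV434 alone were fewer. The 21 upregulated ones were led by HSPA1B, TRIM16L, PTP4A3, ALDH3A2 and USP18. TRIM16L went from 10.8 ± 0.839 to 24.1 ± 3.86 FPKM in COV434 and from 3.12 ± 0.16 to 3.48 ± 0.216 FPKM in KGN. ALDH3A2, a fatty aldehyde dehydrogenase, went from 15.2 ± 0.622 to 23.0 ± 0.634 FPKM in COV434 and from 6.57 ± 0.354 to 6.28 ± 0.391 FPKM in KGN. PTP4A3, a phosphatase, was low in COV434, at 0.63 ± 0.127 and 2.23 ± 0.684 FPKM, and reached 1 FPKM there through the treated libraries only, so its response helped to bring it in. The calls of PTP4A3 and ALDH3A2 missed without KGN treated replicate 1, and that of ALDH3A2 also without KGN control replicate 2, with adjusted p-values of at most 0.0502 and 0.0558 in limma.

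CDKN1A (ENSG00000124762, chromosome 6, 36676460 to 36687339, plus strand), the p21 inhibitor of cell cycle kinases, had 55.7, 55.8 and 58.8 FPKM in COV434 controls and 87.6, 94.5 and 89.9 FPKM in treated COV434. It had 74.5, 74.4 and 68.3 FPKM in KGN controls and 72.9, 74.5 and 77.2 FPKM in treated KGN. The groups did not overlap in COV434 and overlapped in KGN, where the change was 0.05 (95% interval -0.06 to 0.16). The difference was -0.62 (SE 0.11, adjusted p-value 0.0183 in limma). It passed in 8 of 12 fits without 1 library, and missed without KGN control replicates 1 and 2 or treated replicates 1 and 2 (adjusted p-value up to 0.0689).

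Of 26 p53 target genes, 12 rose and 4 fell in KGN (beside 23% and 20.9% of all genes tested). In COV434, 5 rose and 1 fell (beside 4.24% and 4.68%), and the medians were 0.11 and 0.21. A lower response in KGN passed for 4 genes and a higher one for 1 (beside 1.74% and 1.85% of all genes tested). BTG2, an antiproliferative p53 target, rose in both lines, from 38.8 ± 2.31 to 50.7 ± 1.48 FPKM in KGN and from 7.0 ± 0.151 to 17.0 ± 2.33 FPKM in COV434, with a difference of -0.78 (adjusted p-value 0.0153 in limma). FDXR, a mitochondrial reductase, had changes of 0.03 and 0.50. DDB2, which recognizes DNA damage, went from 19.0 ± 0.444 to 13.8 ± 0.579 FPKM in KGN and from 9.59 ± 0.205 to 10.7 ± 0.842 FPKM in COV434. In COV434 all its treated libraries lay above the controls, though the change of 0.15 missed the limit. SESN2, also an ATF4 target, was opposed, with changes of 0.52 and -0.40. ZMAT3, an RNA-binding p53 target, was shared and rose by 0.55 and 0.45. BTG2 missed without KGN control replicate 2 or treated replicates 1 and 2, and DDB2 without any library labelled KGN (adjusted p-values up to 0.0554 and 0.074).

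Of the 15 NF-kB targets measured in both lines, 3 rose and 4 fell in KGN, near the 23% and 20.9% of all genes tested. In COV434, 3 rose and 3 fell (beside 4.24% and 4.68%), and the medians were -0.03 and -0.06. PTGS2 was the only one of the 15 that passed the test of the difference. SOD2, the superoxide dismutase of mitochondria, had 8.43 ± 0.65 and 5.52 ± 0.801 FPKM in COV434 and 3.31 ± 0.365 and 3.51 ± 0.231 FPKM in KGN, with an adjusted p-value of 0.0511 in limma, 0.0272 with the block within COV434 alone and 0.0216 without COV434 treated replicate 3. LIF, a cytokine, had 3.23 ± 0.228 and 5.2 ± 0.959 FPKM in COV434 and 0.989 ± 0.0642 and 1.04 ± 0.054 FPKM in KGN, with an adjusted p-value of 0.103, and of 0.0158 without COV434 treated replicate 1. CSF1, a growth factor of macrophages, rose in both lines (0.27 and 0.52), and BCL3, a nuclear regulator of NF-kB, fell in both (-0.48 and -0.49).

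The 22 genes downregulated in COV434 alone were led by RHOB, EGR1, SLC16A6, NR4A2 and CCNG2. RHOB (ENSG00000143878, chromosome 2, 20447074 to 20449445, plus strand), a small GTPase, had 335, 329 and 311 FPKM in COV434 controls and 153, 166 and 167 FPKM in treated COV434. It had 53, 60.6 and 55.9 FPKM in KGN controls and 55.7, 59.9 and 65.6 FPKM in treated KGN, where the groups overlapped. The difference was 1.10 (SE 0.14, adjusted p-value 0.00242 in limma). EGR1 and NR4A2, transcription factors induced early after stimulation, were higher in KGN than in COV434. EGR1 had 18.6 ± 1.07 and 18.2 ± 0.999 FPKM in KGN and fell from 4.78 ± 0.466 to 1.99 ± 0.237 FPKM in COV434. NR4A2 had 99.2 ± 2.79 and 93.0 ± 3.57 FPKM in KGN and fell from 17.9 ± 1.66 to 8.64 ± 1.04 FPKM in COV434. In KGN all its treated libraries lay below the controls, though the change of -0.09 missed the limit.

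SLC16A6, of the monocarboxylate transporter family, fell from 25.2 ± 1.9 to 14.3 ± 0.758 FPKM in COV434 and had 0.995 ± 0.217 and 1.34 ± 0.31 FPKM in KGN, where 225 reads lay behind its 3 controls. CCNG2, cyclin G2, fell from 2.89 ± 0.0849 to 1.58 ± 0.267 FPKM in COV434. In KGN it had 4.27 ± 0.156 and 4.59 ± 0.0883 FPKM, with all treated libraries above the controls but a change that missed the limit. Its difference of 0.68 (adjusted p-value 0.0145 in limma) missed without KGN control replicate 2 or treated replicates 1 and 2 (adjusted p-value up to 0.0532). The class ranged from -1.0 to -0.40 in COV434 and from -0.09 to 0.35 in KGN.

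**Figure D4:**
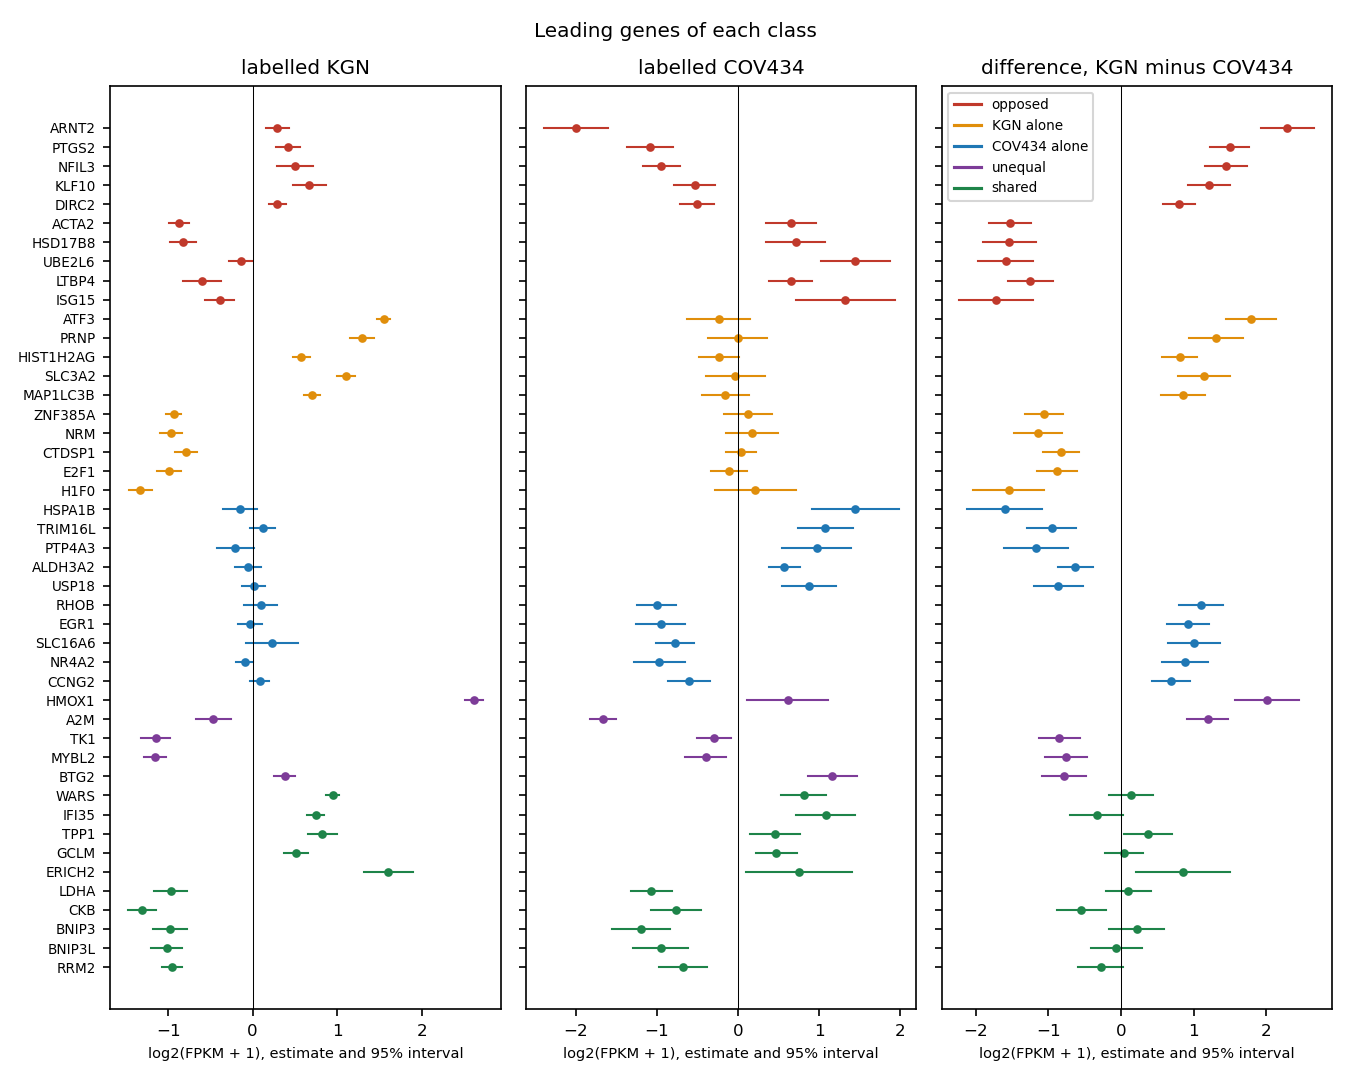
Log2 change with 77-39 on the log2(FPKM + 1) scale for leading genes of each class, as a point with its 95% interval. Panels show libraries labelled KGN (left), those labelled COV434 (middle) and the difference KGN minus COV434 (right). Shown are the 5 leading genes of each direction of a class, and 5 in all for the unequal class. The intervals of COV434 are wider than those of KGN for most genes, and the intervals of the difference cross 0 for the shared genes shown other than TPP1, ERICH2 and CKB.

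The 15 unequal genes moved the same way by different amounts. HMOX1 (ENSG00000100292, chromosome 22, 35380361 to 35394214, plus strand), the heme oxygenase induced by NRF2, had 16.4, 16.7 and 15.2 FPKM in KGN controls and 104, 101 and 107 FPKM in treated KGN. It had 4.67, 4.60 and 4.77 FPKM in COV434 controls and 6.42, 6.64 and 10.5 FPKM in treated COV434. All treated libraries lay above the controls in both lines. The log2 change was 2.62 in KGN and 0.61 in COV434, a difference of 2.01 (SE 0.20, adjusted p-value 8.36e-04 in limma). A2M, a secreted protease inhibitor, fell in both lines and further in COV434. It had 7.85, 9.77 and 9.09 FPKM in KGN controls and 6.38, 6.21 and 5.85 FPKM in treated KGN. In COV434 it had 2.73, 2.57 and 2.81 FPKM in controls and 0.0942, 0.239 and 0.184 FPKM in treated libraries, the latter from 55 reads. Its difference was 1.19 (SE 0.13, adjusted p-value 0.00114).

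In the NRF2 antioxidant list of 27 genes, 12 rose and 5 fell in KGN (beside 23% and 20.9% of all genes tested). In COV434, 7 rose and 0 fell (beside 4.24% and 4.68%), and the medians were 0.14 and 0.22. HMOX1 responded more in KGN and NQO1, a quinone reductase, more in COV434. NQO1 had 6.98, 6.94 and 7.92 FPKM in KGN controls and 6.66, 6.47 and 7.46 FPKM in treated KGN. It had 140, 186 and 166 FPKM in COV434 controls and 254, 275 and 266 FPKM in treated COV434. Its difference of -0.77 (adjusted p-value 0.0247 in limma) passed in 5 of 12 fits without 1 library, and missed without KGN treated replicates 1 and 2 or any KGN control, and without COV434 control replicate 3 or treated replicate 2 (adjusted p-value up to 0.0838). GCLM, a subunit of the enzyme of glutathione synthesis, was shared. It had 8.28, 9.04 and 9.62 FPKM in KGN controls and 13.5, 13.1 and 13.2 FPKM in treated KGN, and 8.12, 9.41 and 8.58 FPKM in COV434 controls and 13.1, 11.7 and 12.6 FPKM in treated COV434. The difference of GCLM was 0.04 (95% interval -0.22 to 0.31), and OSGIN1, SLC48A1 and SQSTM1 of the list were shared too.

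Among the 110 shared upregulated genes, IFI35, an interferon-induced protein, went from 17.1 ± 0.48 to 29.4 ± 1.29 FPKM in KGN and from 29.5 ± 3.13 to 63.7 ± 10.2 FPKM in COV434, with an average log2 change of 0.91 (SE 0.08, adjusted p-value 1.74e-04 in limma). ERICH2 went from 0.812 ± 0.0741 to 4.55 ± 0.858 FPKM in KGN and from 1.38 ± 0.676 to 2.96 ± 0.803 FPKM in COV434, from 27 reads in the KGN controls, so it was included in KGN through the treated libraries only. Its interval of the difference, 0.21 to 1.49, did not include 0, although the adjusted p-value was 0.147. MSMO1, an enzyme of cholesterol synthesis, and INSIG1, a regulator of that pathway, were shared as well.

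The 159 shared downregulated genes were led by LDHA, CKB, BNIP3, BNIP3L and RRM2. LDHA (ENSG00000134333, chromosome 11, 18394388 to 18408425, plus strand), the lactate dehydrogenase of glycolytic cells, had 68.1, 83.1 and 77.7 FPKM in KGN controls and 37.1, 38.6 and 39.5 FPKM in treated KGN. It had 283, 302 and 320 FPKM in COV434 controls and 146, 133 and 150 FPKM in treated COV434. Treated and control libraries were apart in both lines. The changes were -0.97 and -1.07, with an average of -1.02 (SE 0.07, adjusted p-value 5.92e-05 in limma) and a difference of 0.10 (95% interval -0.21 to 0.41).

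BNIP3 (ENSG00000176171, chromosome 10, 131966455 to 131982013, minus strand), a receptor for the removal of mitochondria, had 17.2, 21.1 and 18.9 FPKM in KGN controls and 8.72, 9.18 and 9.56 FPKM in treated KGN. In COV434 it had 26.5, 27.5 and 25.0 FPKM in controls and 10.0, 9.62 and 13.4 FPKM in treated libraries. Its relative BNIP3L went from 15 ± 1.35 to 6.89 ± 0.303 FPKM in KGN and from 19.5 ± 1.34 to 9.65 ± 1.57 FPKM in COV434. CKB, the brain-type creatine kinase, went from 21.1 ± 1.38 to 7.9 ± 0.515 FPKM in KGN and from 139 ± 16.3 to 81.4 ± 6.54 FPKM in COV434, with a difference of -0.55 (95% interval -0.88 to -0.21, adjusted p-value 0.0827). The average responses of BNIP3, BNIP3L and CKB passed in all 12 fits without 1 library.

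The promoters of LDHA and BNIP3 are shown for the core of the hypoxia response element, ACGTG, in capitals on either strand. LDHA is at chr11:18394313-18394562 on the plus strand and BNIP3 at chr10:131981924-131982173 on the minus strand of GRCh38.p14, each read along its gene up to the RefSeq start. LDHA holds 5 matches at 3 places and BNIP3 holds 2 at 1 place, since CACGTG is read on both strands. ACGTG was in 32 of 114 promoters of shared downregulated genes (28.1%), in 28 of 81 of shared upregulated genes (34.6%), in 25.1% of those of the 10235 genes and in 18.7% of all promoters.
LDHA: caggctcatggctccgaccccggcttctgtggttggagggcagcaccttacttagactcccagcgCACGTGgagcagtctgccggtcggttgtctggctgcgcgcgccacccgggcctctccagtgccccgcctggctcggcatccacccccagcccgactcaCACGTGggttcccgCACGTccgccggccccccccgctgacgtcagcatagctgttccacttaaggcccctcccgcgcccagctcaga
BNIP3: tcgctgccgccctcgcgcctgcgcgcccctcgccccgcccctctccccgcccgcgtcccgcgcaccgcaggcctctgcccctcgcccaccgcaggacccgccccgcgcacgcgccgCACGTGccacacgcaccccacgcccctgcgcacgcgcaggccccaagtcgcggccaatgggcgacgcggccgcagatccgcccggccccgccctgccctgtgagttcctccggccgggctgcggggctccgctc

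Of 20 glycolysis genes, 2 rose and 16 fell in KGN (beside 23% and 20.9% of all genes tested), and 0 rose and 12 fell in COV434 (beside 4.24% and 4.68%), with medians of -0.59 and -0.39. Of these, 10 were shared downregulated genes, among them PGK1 (-0.93 and -0.83), TPI1 (-0.78 and -0.61), PKM (-0.69 and -0.61), HK2 (-0.45 and -0.60) and PFKFB4 (-1.57 and -1.02), enzymes of the pathway or its regulation. The 2 genes that differed were a regulator and a transporter. PFKFB3, which makes the activator of phosphofructokinase, fell from 7.9 ± 0.62 to 4.45 ± 0.488 FPKM in KGN and had 3.69 ± 0.472 and 4.12 ± 0.628 FPKM in COV434 (difference -0.83, adjusted p-value 0.0222 in limma). SLC16A1, a lactate transporter, rose from 23.5 ± 0.374 to 33.5 ± 1.28 FPKM in KGN and had 52.8 ± 6.42 and 43.3 ± 6.53 FPKM in COV434. PFKFB3 passed in 7 and SLC16A1 in 4 of 12 fits without 1 library. PFKFB3 missed without KGN control or treated replicates 2 and 3 and COV434 control replicate 3, and SLC16A1 without any library labelled KGN, COV434 control replicate 3 or treated replicate 2 (adjusted p-values up to 0.0744 and 0.0936).

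Of 19 hypoxia response genes, 4 rose and 12 fell in KGN (beside 23% and 20.9% of all genes tested). In COV434, 0 rose and 10 fell (beside 4.24% and 4.68%), and the medians were -0.22 and -0.52. A higher response in KGN passed for 3 genes, ARNT2, BHLHE40 and LOX (beside 1.85% of all genes tested). BHLHE40, a circadian and hypoxia-induced repressor, fell in both lines, from 80.7 ± 1.95 to 73.8 ± 1.15 FPKM in KGN and from 61.6 ± 6.95 to 35 ± 3.25 FPKM in COV434. LOX, which crosslinks collagen, was opposed, at 4.48 ± 0.604 and 5.87 ± 0.174 FPKM in KGN and 16.4 ± 1.66 and 11.6 ± 2.26 FPKM in COV434. Their differences of 0.67 and 0.81 had adjusted p-values of 0.0288 and 0.0394 in limma and passed in 4 and 3 of 12 fits without 1 library. Both missed without any library labelled KGN, COV434 control replicate 3 or treated replicate 2, and LOX also without treated replicate 3 (adjusted p-values up to 0.09 and 0.111). Another 6 genes were shared and fell, BNIP3, BNIP3L, PLOD1, PLOD2, P4HA1 and EGLN1, the last of them the oxygen sensor of HIF.

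Of 28 genes of cholesterol and fatty acid synthesis, 12 rose and 7 fell in KGN (beside 23% and 20.9% of all genes tested). In COV434, 5 rose and 0 fell (beside 4.24% and 4.68%), and the medians were 0.02 and 0.16. SCD, the stearoyl-CoA desaturase, went from 334 ± 14.8 to 769 ± 45.8 FPKM in KGN and had 605 ± 140 and 646 ± 91.2 FPKM in COV434 (difference 1.09, adjusted p-value 0.0299 in limma). LSS, the lanosterol synthase, went from 18.1 ± 2.8 to 28.2 ± 1.37 FPKM in COV434 and had 10.0 ± 0.477 and 9.95 ± 0.228 FPKM in KGN. ACAT2, which makes acetoacetyl-CoA, fell from 6.3 ± 0.33 to 4.01 ± 0.279 FPKM in KGN and had 15.3 ± 2.62 and 17.1 ± 1.19 FPKM in COV434. The calls of SCD, LSS and ACAT2 missed without any library labelled KGN, COV434 control replicate 3 or treated replicate 2, and that of LSS also without treated replicate 3 (adjusted p-values up to 0.0925, 0.115 and 0.126).

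Of 26 actin and SRF target genes, 2 rose and 20 fell in KGN (beside 23% and 20.9% of all genes tested). In COV434, 2 rose and 2 fell (beside 4.24% and 4.68%), and the medians were -0.28 and -0.05. ACTA2, CNN2 and ACTB responded lower in KGN and EGR1 higher. CNN2, an actin-binding calponin, was opposed, at 109 ± 2.95 and 77.3 ± 1.5 FPKM in KGN and 32.1 ± 3.04 and 38.4 ± 1.11 FPKM in COV434, with a difference of -0.75 (adjusted p-value 0.0114 in limma) that passed in all 12 fits without 1 library. ACTB, the cytoplasmic actin often used as a reference gene, had changes of -0.78 and 0.11. JUNB, an AP-1 factor, fell in both (-0.46 and -0.77).

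The 13 mitochondrially encoded genes had medians of 0.29 in KGN and 0.14 in COV434, while the share of mitochondrial reads also moved between libraries as given above. In KGN, 2 rose and 0 fell (beside 23% and 20.9% of all genes tested), and in COV434 0 rose and 0 fell (beside 4.24% and 4.68%). MT-CO3 had 7850 ± 415 and 4843 ± 559 FPKM in KGN and 12869 ± 1105 and 9913 ± 1638 FPKM in COV434, with an average log2 change of -0.54 (SE 0.12, adjusted p-value 0.021 in limma). In the fits of each line alone it missed the limit, with unadjusted p-values of 0.0965 in KGN and 0.709 in COV434 in limma. MT-CO3 was thus in no class, though all its treated libraries lay below the controls in both lines. The SE of its change in those fits was 0.35 in KGN and 0.98 in COV434. The misses, and the counts of genes that fell, therefore do not show that MT-CO3 was unchanged. MT-ND2 had 2238 ± 257 and 3468 ± 388 FPKM in KGN and 2450 ± 239 and 2528 ± 688 FPKM in COV434, with an adjusted p-value of the difference of 0.268 in limma, the lowest of the 13 genes, and of 0.0421 without COV434 treated replicate 1.

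SIRT3 (ENSG00000142082, chromosome 11, 215458 to 236931, minus strand), the target of the compound, had 4.22, 4.35 and 4.30 FPKM in KGN controls and 3.63, 3.94 and 4.55 FPKM in treated KGN. It had 3.70, 4.30 and 3.46 FPKM in COV434 controls and 3.36, 4.95 and 4.82 FPKM in treated COV434. The groups overlapped in both lines, and the difference was -0.22 (95% interval -0.61 to 0.17, adjusted p-value 0.572 in limma). Of 21 genes of the sirtuins and SIRT3 substrates, 0 rose and 6 fell in KGN (beside 23% and 20.9% of all genes tested). In COV434, 1 rose and 4 fell (beside 4.24% and 4.68%). OGG1, a DNA repair glycosylase, was the only one of the 21 that passed the test of the difference, with changes of -0.30 and 0.18 and an adjusted p-value of 0.0347 that missed in 8 of 12 fits without 1 library. The exceptions were the fits without KGN control replicate 1 and COV434 control replicate 1 or treated replicates 1 and 3. SDHA, of respiratory complex II, and PDHA1, of pyruvate dehydrogenase, fell in both lines (-0.52 and -0.41, and -0.33 and -0.41). ACSS2, which makes acetyl-CoA from acetate, went from 13.9 ± 2.74 to 25.1 ± 2.77 FPKM in COV434 and had 6.06 ± 0.728 and 6.13 ± 0.416 FPKM in KGN, with an adjusted p-value of the difference of 0.0519. For ACSS2 it was 0.0056 with the block within COV434 alone and 0.0221 without COV434 control replicate 1.

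The classes also differed in where their genes were expressed before treatment, which is given as levels only because the same control libraries enter the responses. Opposed genes that rose in KGN had a median of 4.48 FPKM in KGN controls and 12.9 FPKM in COV434 controls, and those that fell in KGN had 16.4 and 8.22 FPKM. Genes downregulated in COV434 alone had 5.08 and 19.7 FPKM, and those upregulated in COV434 alone had 6.04 and 5.96 FPKM. Genes upregulated in KGN alone had 8.09 and 10.2 FPKM, and those downregulated had 12.1 and 12.7 FPKM. The median over the 9667 genes in no class was 7.29 and 7.67 FPKM.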

How the data were processed

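RNA of KGN and COV434 cells was sequenced in 12 libraries, 3 per cell line and treatment, grouped by their titles. The authors deposited FPKM, counted fragments divided by gene length and library size. The processing notes name HISAT2 2.0.5 and the mouse builds mm10 and mm8, while gene IDs and coordinates are those of GENCODE on GRCh38. The counter and its use of strand are not given in the sources used here, so reads of genes that overlap on opposite strands cannot be told apart. Multiplied by gene length, FPKM fell on whole reads in 100% of genes (tolerance 0.05), which gave the depth per library.

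Genes whose mean over the 12 libraries reached 1 FPKM were fitted on log2(FPKM + 1) with limma 3.58.1 (lmFit, and eBayes with a trend) in R 4.3.3. The interaction and the average response came from 1 fit of all 12 libraries, and each response from the 6 libraries of its line. All tests were two-sided and p-values were adjusted over all genes fitted (Benjamini-Hochberg), and the script was tested on simulated data. A difference on this scale understates the change of low genes. Named genes are SIRT3, CDKN1A and FOXL2, the 5 protein-coding genes with the smallest p in each direction of each class (5 for the unequal class), and the 3 genes with the smallest p of the difference in each of 16 hand-written lists. Other genes are named from list counts or were chosen after their values were seen, and the fits without 1 library are not given for them. A few genes of the lists are counted but not reported by name here. The genes, lists and tests were chosen with earlier results of these data known. Promoters and motifs were read from RefSeq on GRCh38.p14, where 7510 of 10213 gene symbols were found.

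Other settings tried were a filter at 0.1 FPKM or none, a pseudocount of 0.1, median-ratio and quantile scaling, voom on recovered reads, library weights by line, line contrasts from the fit of all libraries, the replicate number as a block, and each library left out. Same-numbered libraries deviated together in COV434 alone, so a block within COV434 was added after seeing the data, although no label states a pairing.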

Additional observations from a re-analysis of the deposited data

Results flagged for a closer look

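A closer look is merited by 57 of the named genes, whose response differed between the libraries labelled KGN and COV434 at an adjusted p-value under 0.05 in limma's test of the interaction. The values below are differences of log2(FPKM + 1), KGN minus COV434, and no cause of any of them was tested.

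Among opposed genes, the difference was 2.29 for ARNT2, 1.49 for PTGS2, 1.44 for NFIL3, 1.21 for KLF10, 0.80 for DIRC2, 0.81 for LOX and 0.77 for NPC1. It was -1.52 for ACTA2, -1.54 for HSD17B8, -1.58 for UBE2L6, -1.25 for LTBP4, -1.71 for ISG15, -1.22 for PHGDH, -1.84 for HSPA1A and -0.75 for CNN2. ARNT2 and HSPA1A stand at the ends of this range.

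Among genes changed in KGN alone, it was 1.79 for ATF3, 1.30 for PRNP, 0.81 for HIST1H2AG, 1.14 for SLC3A2, 0.85 for MAP1LC3B, 1.09 for SCD, 0.90 for NEU1 and 0.63 for LAMP2. It was -1.06 for ZNF385A, -1.13 for NRM, -0.82 for CTDSP1, -0.88 for E2F1, -1.54 for H1F0, -0.74 for MCM3, -0.71 for CDC20, -0.58 for DDB2, -0.83 for PFKFB3 and -0.70 for ACAT2.

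Among genes changed in COV434 alone, it was -1.60 for HSPA1B, -0.96 for TRIM16L, -1.17 for PTP4A3, -0.63 for ALDH3A2, -0.86 for USP18, -0.77 for NQO1, -0.62 for CDKN1A and -0.64 for LSS. It was 1.10 for RHOB, 0.92 for EGR1, 1.00 for SLC16A6, 0.88 for NR4A2 and 0.68 for CCNG2.

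For genes that moved the same way by unequal amounts, it was 2.01 for HMOX1, 1.19 for A2M, 0.67 for BHLHE40, -0.85 for TK1, -0.76 for MYBL2, -0.78 for BTG2, -0.59 for PLK1 and -1.09 for HSPA8. SLC16A1 at 0.78, ERN1 at 0.78 and OGG1 at -0.49 met no class.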

How the results depend on the processing

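Of 10235 genes, 299 differed between lines, and counts stayed within 1.5 times of the main one except as follows. Without a filter, 192 genes differed, 66 belonged to KGN alone and 24 to COV434 alone. Quantile normalization gave 204 genes of KGN alone. Genes of COV434 alone numbered 27 with a pseudocount of 0.1, 25 with weights by line and 28 with voom. Line contrasts from the fit of all 12 libraries called 2232 genes in KGN and 1620 in COV434. With the replicate number as a block in both lines, 1202 genes passed the average response, 1258 changed in COV434, 23 were unequal and 405 shared. With the block within COV434 alone, a pairing that no label states, 1199 differed, 2039 passed the average and 1258 changed in COV434. Of the classes, 189 were then opposed, 475 of KGN alone, 187 of COV434 alone and 52 unequal. Leaving out each library in turn gave 70 to 732 genes that differed, 385 to 1182 with an average response, 3996 to 4869 called in KGN, 447 to 943 in COV434, 30 to 186 opposed, 22 to 216 of KGN alone, 10 to 116 of COV434 alone, 3 to 23 unequal and 137 to 285 shared. The causes were not tested, apart from the loss of a library or a gene filter by construction. Over the named genes and these alternatives, 1568 values kept their side of the threshold, 18 newly passed, 174 no longer passed and 0 reversed. Runs that left the estimate unchanged could not reverse a value. No scaling moved the median difference of all genes by more than 0.1. Depth limits low genes most, such as A2M with 55 reads in treated COV434.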
